A study of Mus musculus with 24 samples.

Results

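The 10 genes described here encode the core of the microRNA pathway: Drosha, Dgcr8, Xpo5, Dicer1, Ago1, Ago2, Ago3, Tnrc6a, Tnrc6b and Tnrc6c. They were chosen by name, with earlier results of these data known, from the 47069 genes of a read count table. All 10 were found and passed the filter on low counts. The table holds 24 RNA-seq libraries from cultured fetal liver cells of mouse embryos at embryonic stage E12.5-13.5. Every group carried the same 2 background elements, a strain with the CAG-cas9*,-EGFP allele at Gt(ROSA)26Sor (Fezh/J line on B6J.129), in which the CAG promoter drives Cas9 and EGFP in most cell types, and a guide RNA against Gata1 (sgGata1). The labels name these cells for Gata1s, the short form of GATA1. The second transgene was either miR-125b or a control microRNA construct (miR-ctrl). Both arms were given doxycycline at 1 ug/mL and sampled at day 2 (after 48 h), at day 10, at day 13 with doxycycline continued, and at day 13 after doxycycline was withdrawn on day 10. This gives 8 groups of 3 libraries. The labels do not say whether replicates were separate cultures or animals, so p-values measure only the spread between these libraries.

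As background, a microRNA starts as a hairpin in a longer transcript, which the Microprocessor, the nuclease Drosha with its RNA-binding partner Dgcr8, cuts out in the nucleus. Exportin-5, encoded by Xpo5, carries the hairpin to the cytoplasm, where Dicer cuts off its loop and an Argonaute protein takes up one strand. The loaded Argonaute finds mRNAs through the seed of the microRNA, and the TNRC6 (GW182) proteins bound to it recruit the enzymes that shorten the poly(A) tail and repress translation. Dicer and the Microprocessor are needed for normal blood cell development, and miR-125b is among the microRNAs known for effects on blood stem cells and megakaryocytes when overexpressed.

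The study raised a single microRNA, so the letters through which it could pair with the members' own mRNAs are shown first. The mature miR-125b-5p is encoded with 1 sequence at 2 places in the mouse genome, on chromosome 9 (Mir125b-1, chr9:41581940-41581961, plus strand) and on chromosome 16 (Mir125b-2, chr16:77646279-77646300, plus strand; RefSeq, GRCm38.p6). Capitals mark the seed, bases 2 to 8.
miR-125b-5p: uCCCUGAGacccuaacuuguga
A match to the seed in a transcript reads CTCAGGG on the sense strand, and an A after it gives the 8-base form CTCAGGGA. The 3′ untranslated regions (UTRs) annotated in GENCODE M21 (GRCm38) were searched on the sense strand alone for these letters. Of the 10 members, 2 held a match, Dicer1 with 1 in 3851 bases and Ago2 with 2 in 11064 bases, all of the 7-base form. The other 8 members held none in UTRs of 169 bases (Drosha) to 12742 bases (Ago3). Matches to bases 2 to 7 alone, with or without an A after them, were not searched. These members are thus not shown to lack every form of seed match. Over the 11665 tested genes with an annotated 3′ UTR, 15.9% held a match. The longest annotated UTR of each gene was searched, with a median of 3219.5 bases for the members and 1145 for the tested genes. The shares are thus not matched for length. For comparison, Arid3a, the target named in the title of the study, held 6, of which 2 were of the 8-base form and are printed. In these windows capitals mark the match.
Dicer1, chr12:104689510-104689516, minus strand: tatgcttcgttcatccattCTCAGGGctca
Ago2, chr15:73106594-73106600, minus strand: taaaaccagtctatgaactCTCAGGGcttt
Ago2, chr15:73100530-73100536, minus strand: cgtggtgtaagccacagccCTCAGGGcacc
Arid3a, chr10:79952887-79952894, plus strand: tgcagtggcctcctgtgcCTCAGGGAtgac
Arid3a, chr10:79953820-79953827, plus strand: acctccatgggtaactggCTCAGGGAtata
A match is a description of letters and not a site shown to be used.

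The Dgcr8 gene holds microRNA hairpins in exons, as does Tnrc6b, and as background the Microprocessor is known to cut the Dgcr8 mRNA at such hairpins. RefSeq (GRCm38.p6) places mir-1306 in a coding exon (chr16:18284239-18284317, minus strand) and mir-3618 in a non-coding part of an exon (chr16:18284550-18284637, minus strand), both on the strand of the gene. Their mature arms are printed with the seed in capitals.
miR-1306-5p: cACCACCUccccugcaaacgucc
miR-1306-3p: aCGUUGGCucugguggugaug
miR-3618-5p: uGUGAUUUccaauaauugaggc
miR-3618-3p: cUACAUUAaugaaaagagcaau
None of these seeds is that of miR-125b-5p. Xpo5 hosts Mir693 in an intron, and Tnrc6b hosts Mir5113 in a non-coding part of an exon. The libraries do not report these small RNAs: Mir1306, Mir693, Mir5113, Mir125b-1 and Mir125b-2 had 0 counts in each of the 24 libraries, where a count of 0 allows up to 3 counts per library. The level of miR-125b itself was therefore not measured here.

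Total counts ranged from 14694900 to 23755245 per library, and the members had between 275 counts (Ago3) and 3690 counts (Tnrc6a) in a library. Levels are given as CPM, counts scaled to a common library total, after TMM scaling, which adjusts that total by the bulk of a library's genes. Tests are edgeR quasi-likelihood tests over 13419 genes with Benjamini-Hochberg adjustment over all of them, and a gene is called where the adjusted p is under 0.05. The replicate numbers were found to pair the libraries, so a second fit, blocked on replicate number, is named wherever it alters a call. Its common dispersion, the variation between libraries shared over genes, was 0.0169 against 0.0591 without the block. SE and adjusted p are from the fit without the block unless the block is named, and such values leave the pairing out. Arid3a, the label check, was lower with miR-125b at day 10 (-0.88 ± 0.16 SE, adjusted p = 0.0230) and in the libraries labelled withdrawal (-1.15 ± 0.16 SE, adjusted p = 0.00435). At day 2 its CPM was 28.5 to 41.3 with miR-125b against 52.1 to 68.3 in control. Those groups did not overlap, as for 6.22% of all genes in that direction, but Arid3a was not called there. In the miR-125b libraries labelled day 13 with doxycycline continued, Arid3a was not called against control (-0.22 ± 0.16 SE, adjusted p = 1.00). This goes against the labels of the 2 miR-125b day 13 groups. Any direction drawn from those groups rests on labels that this gene does not bear out. In control, Arid3a overlapped between the continued and withdrawal labels (49.5 to 71.9 and 64.1 to 76.3 CPM), so it cannot check those labels. Gata1 was not called in any comparison, and its count does not report which form is made. The 6 megakaryocyte markers summed to between 2440 and 6238 CPM and the 6 erythroid markers to between 69.4 and 174 CPM, and of the 4 hepatoblast markers Ttr was at 0 in 24 libraries, Alb in 23 and Dlk1 in 19. The hepatoblast gene Afp was at 0 in none, with a median of 2.47 CPM (1.36 to 4.45). These are bulk samples, in which fewer cells of a type and less RNA per cell cannot be told apart. A library labelled miR-125b day 2 replicate 3 and one labelled control withdrawal replicate 1 stand apart from their groups, and results that rest on them are given with and without them.

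All 10 genes were expressed in all 24 libraries, and their levels differed far more from gene to gene than from group to group. Per kilobase of annotated exon, Drosha was the highest at 18.5 ± 2.06 CPM per kb (SD, n = 24) and Ago3, one of the Argonautes, the lowest at 1.34 ± 0.116. The range of Drosha did not overlap that of the next gene, Ago1. Ago1 (11.7 ± 1.30), Xpo5 (10.9 ± 1.70), Tnrc6a (10.7 ± 1.5) and Ago2 (10.5 ± 1.46) followed with overlapping ranges, each above the next in only 13 or 14 of 24 libraries, so their order is not fixed by these data. Ago2 was above Dgcr8 (5.999 ± 0.720) in 24 of 24 libraries, Dgcr8 above Dicer1 (5.66 ± 0.644) in 18, Dicer1 above Tnrc6c (3.39 ± 0.367) in 24 and Tnrc6c above Tnrc6b (2.84 ± 0.413) in 23. The order in the middle depends on the length used: with the longest transcript, Tnrc6a came to 16.6 CPM per kb, Xpo5 to 14.8, Ago1 to 13.1, Dgcr8 to 10.69 and Dicer1 to 9.63, while Drosha stayed the highest at 23.97. On that length Ago2 came to 10.66, just below Dgcr8, and Tnrc6b (3.88) came above Tnrc6c (3.76).

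**Figure D1:**
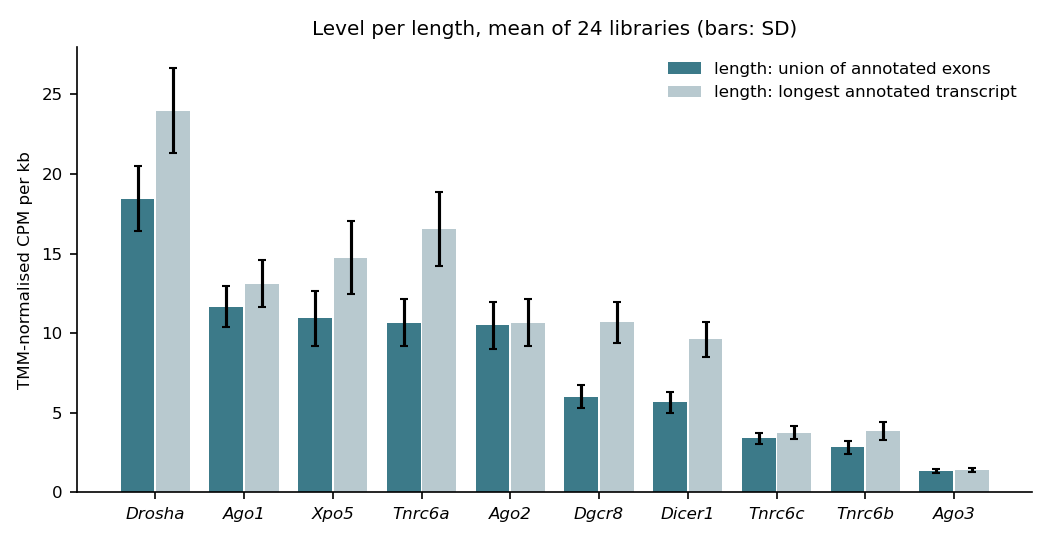
Level of each gene per length of its annotated exons or of its longest annotated transcript, as TMM-normalised CPM per kb. Bars are the mean of 24 libraries and whiskers the SD. Drosha is highest and Ago3 lowest on both lengths, while the genes between them change order.

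Within each family the make-up varied little between libraries. Of the per-length sum of Ago1, Ago2 and Ago3, Ago1 made 49.7% ± 3.04 (SD, n = 24), Ago2, the one mammalian Argonaute that readily cuts its target, 44.5% ± 3.09, and Ago3 5.74% ± 0.463. Of the 3 TNRC6 genes, Tnrc6a made 63.0% ± 3.15, Tnrc6c 20.2% ± 2.23 and Tnrc6b 16.8% ± 1.45. Drosha mRNA exceeded that of its partner Dgcr8 per kilobase of annotated exon by 3.13 ± 0.644-fold. The ratio spanned 2.34 to 5.52, and the top value came from the control withdrawal replicate 1 library. These shares and this ratio depend on the length used. With the longest transcript, the means were 23.97 CPM per kb for Drosha and 10.69 for Dgcr8. On that length Tnrc6b (3.88) was above Tnrc6c (3.76).

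Against that background, no member was called in any of the 16 comparisons by the fit without the block. With miR-125b against control, 0 of 10 members were called at day 2, where 0% of all tested genes were, at day 10, where 0.872% were, at day 13 with continued doxycycline, where 0% were, at day 13 after withdrawal, where 0.119% were, and over the average of the 4 conditions, where 1.28% were. At an unadjusted p under 0.05 the members numbered 3, 2, 0, 0 and 1 in the same order, against 5.28%, 17.4%, 2.89%, 8.55% and 12.1% of all genes, and DESeq2 also called 0 in each. With the block, 1 member was called: Tnrc6a, lower over the average of the conditions, where 6.39% of all genes were called. With the block, 0 members were called in the single conditions, where 0%, 8.63%, 0.0149% and 1.86% of all genes were. The CPM values by library show how small the group differences are beside the spread of each gene.

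**Figure D2:**
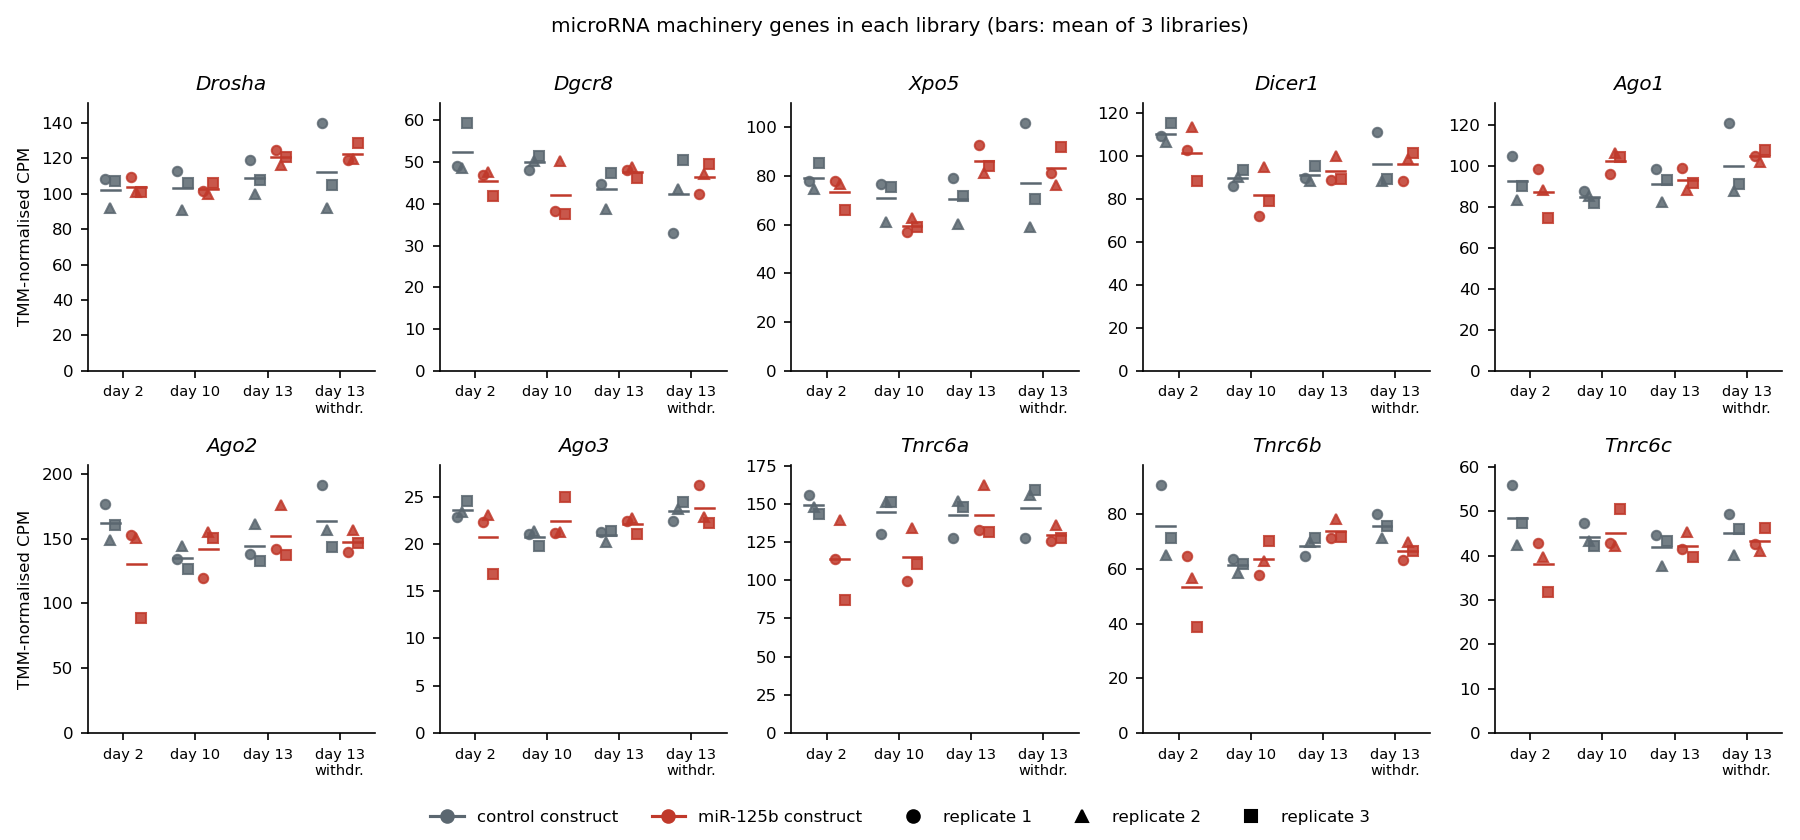
TMM-normalised CPM of each gene (vertical axis, from 0) in the 8 groups (horizontal axis, labelled conditions). Each point is a library, coloured by construct and shaped by replicate number, and bars are means of 3 libraries. The lowest points of the Argonaute and TNRC6 genes come from 1 library of the miR-125b day 2 group.

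Drosha, the nuclease that opens the pathway, showed no called effect of miR-125b with all libraries in the fit. Its CPM in replicates 1, 2 and 3 was 108, 91.8 and 107 in control and 109, 101 and 101 with miR-125b at day 2. At day 10 it was 113, 90.6 and 106 in control and 102, 99.82 and 106 with miR-125b. These groups overlap at both times, and the log2 differences were 0.018 ± 0.12 and -0.0084 ± 0.12 (SE). In libraries labelled day 13, doxycycline continued, it was 119, 100.08 and 108 in control and 124.8, 116 and 121 with miR-125b. In those labelled withdrawal it was 140.1, 92.1 and 105 in control and 119, 119.6 and 129 with miR-125b. All miR-125b libraries of both day 13 groups lie above the 3 miR-125b libraries of day 10, as for 14% of all genes under the continued label and 12.8% under the withdrawal label. Against day 10 the log2 difference was 0.24 ± 0.12 (SE, adjusted p = 0.264) with continued doxycycline and 0.26 ± 0.12 (SE, adjusted p = 0.289) after withdrawal, and neither passed the test. In the control arm the same differences were 0.082 ± 0.12 and 0.12 ± 0.12. The control withdrawal value of 140.1 is the highest of all 24 libraries and comes from the library that stands apart. With the block and without both libraries that stand apart, a fit chosen after seeing the data, Drosha was higher with miR-125b after withdrawal (0.30 ± 0.075 SE, adjusted p = 0.0329) and over the average of the conditions (0.13 ± 0.035 SE, adjusted p = 0.0284). The blocked fit without control withdrawal replicate 1 alone gave 0.29 ± 0.078 (SE, adjusted p = 0.0484) after withdrawal.

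Dgcr8, the RNA-binding subunit of the Microprocessor, was lower with miR-125b in every replicate pair at days 2 and 10 and not at day 13, but no difference passed the test with all libraries in the fit. At day 2 its CPM was 48.9, 48.4 and 59.4 in control and 46.9, 47.5 and 41.8 with miR-125b. These groups do not overlap, as held for 6.22% of all genes in that direction, and 3 members did the same (Dgcr8, Tnrc6a and Tnrc6b). At day 10 it was 48.1, 50.2 and 51.3 in control and 38.3, 50.1 and 37.6 with miR-125b, where replicate 2 of the miR-125b group lies among the controls. The log2 differences were -0.20 ± 0.13 (SE, adjusted p = 1.00) and -0.25 ± 0.13 (SE, adjusted p = 0.359). With the block and without miR-125b day 10 replicate 2, the day 10 difference was called (-0.40 ± 0.13 SE, adjusted p = 0.0392). No other fit called it, and this one leaves out the miR-125b library that lies among the controls. Without the block, 0 of 6 fits with 1 library left out called it. At day 13 Dgcr8 CPM was 44.6, 38.6 and 47.4 in control and 48.0, 48.9 and 46.2 with miR-125b under the continued label, and 32.9, 43.6 and 50.4 and 42.3, 47.0 and 49.6 under the withdrawal label. Both day 13 comparisons overlap, with differences of 0.13 ± 0.13 and 0.13 ± 0.13 (SE). Within the control arm the 3 values labelled day 13 lie below the 3 of day 10 (-0.20 ± 0.13 SE, adjusted p = 1.00), where 4.55% of all genes did so and 0.0224% were called.

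Xpo5, the export carrier, was the most variable member (coefficient of variation 15.6% over 24 libraries, against a median of 16.9% over all genes) and the one with the largest difference in time. In the miR-125b arm its CPM was 78.0, 76.5 and 65.9 at day 2, 56.8, 62.5 and 58.9 at day 10, 92.7, 81.0 and 84.0 in libraries labelled day 13, doxycycline continued, and 81.0, 76.4 and 91.7 in those labelled withdrawal. The 3 values of day 10 lie below the 9 others of that arm. In the control arm it was 77.8, 74.6 and 85.4 at day 2, 76.5, 61.2 and 75.4 at day 10, 78.9, 60.1 and 71.9 at day 13 and 102, 59.1 and 70.4 after withdrawal. These control groups overlap from day 10 on, and replicate 2 is the lowest in all 4 of them. From day 10 to the continued day 13 label in the miR-125b arm the log2 difference was 0.53 ± 0.15 (SE, adjusted p = 0.0533), just outside the threshold. With the block Xpo5 rose by 0.52 ± 0.13 (SE, adjusted p = 0.0120), where 13.4% of all genes were called with the block and 3.53% without, and DESeq2 (adjusted p = 0.0211) and the newer quasi-likelihood estimate (adjusted p = 0.0498) also called it. Leaving out 1 library at a time from the blocked fit kept the call in 3 of 6 fits, and it was lost without miR-125b day 10 replicate 1 (adjusted p = 0.0838), day 10 replicate 3 (0.0742) or day 13 replicate 2 (0.0552). Against the withdrawal label, a comparison added after the values were seen, the difference was 0.48 ± 0.15 (SE, adjusted p = 0.127) and, with the block, 0.48 ± 0.13 (SE, adjusted p = 0.0358), where 5.33% of all genes were called. That call held in 2 of 6 blocked fits with 1 library left out, and was lost without day 10 replicate 1 (adjusted p = 0.192), day 10 replicate 3 (0.168), withdrawal replicate 2 (0.107) or withdrawal replicate 3 (0.216).

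In the control arm the Xpo5 difference from day 10 to day 13 was -0.014 ± 0.15 (SE). The test of the difference between the arms, also added after the values were seen, gave 0.55 ± 0.21 (SE, adjusted p = 0.232) and, with the block, 0.54 ± 0.18 (SE, adjusted p = 0.0878), so the time course of Xpo5 is not shown to differ between miR-125b and control with all libraries in the fit. The blocked fit without miR-125b day 10 replicate 2 called it (0.66 ± 0.18 SE, adjusted p = 0.0252). No other fit did, and that library holds the highest Xpo5 value of its group. From day 2 to day 10 the miR-125b difference was -0.31 ± 0.15 (SE, adjusted p = 0.347), with groups that do not overlap, as for 9.98% of all genes in that direction. With the block and without both libraries that stand apart that difference was -0.42 ± 0.098 (SE) with an adjusted p of 0.0204. Between the arms Xpo5 was -0.26 ± 0.15 (SE, adjusted p = 0.399) at day 10 and 0.29 ± 0.15 (SE, adjusted p = 1.00) under the continued day 13 label, where all 3 miR-125b values lie above all 3 controls, as for 4.4% of all genes.

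Dicer1, the cytoplasmic nuclease and 1 of the 2 members with seed letters for miR-125b in its UTR, varied more with time than with construct, and no difference passed the test with all libraries in the fit. Its CPM was 109, 106 and 115 in control and 103, 113 and 88.4 with miR-125b at day 2. It was 85.7, 90.1 and 93.4 in control and 71.8, 94.5 and 79.0 with miR-125b at day 10. The constructs overlap at both times, with log2 differences of -0.12 ± 0.11 and -0.13 ± 0.11 (SE), and they differed by 0.026 ± 0.11 and 0.00048 ± 0.11 under the 2 day 13 labels. In the control arm all 3 values of day 10 lie below all 3 of day 2, as for 6.86% of all genes. The difference was -0.30 ± 0.11 (SE, adjusted p = 0.542) in control and -0.31 ± 0.11 (SE, adjusted p = 0.190) with miR-125b, lower in 3 of 3 pairs in each, and neither passed the test, with 0% of all genes called in control and 0.224% with miR-125b. With the block and without both libraries that stand apart, Dicer1 was lower at day 10 in the miR-125b arm, at -0.43 ± 0.083 (SE) with an adjusted p of 0.00795. The blocked fit without miR-125b day 10 replicate 2 also called this difference (-0.42 ± 0.11 SE, adjusted p = 0.0291). That library holds the highest Dicer1 value of its group. At day 13 Dicer1 CPM was 89.6, 88.2 and 95.2 in control and 88.7, 100.05 and 89.3 with miR-125b under the continued label, and 111, 88.1 and 89.1 and 88.4, 98.2 and 101 under the withdrawal label. Against day 10 the miR-125b withdrawal group differed by 0.23 ± 0.11 (SE, adjusted p = 0.303).

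Among the Argonautes, Ago1 had the only groups that stood clear of each other between the constructs. At day 10 its CPM was 88.0, 85.7 and 82.0 in control and 96.2, 106 and 105 with miR-125b. All 3 miR-125b values lie above all 3 controls, as for 9.14% of all genes in that direction. The log2 difference was 0.26 ± 0.12 (SE, adjusted p = 0.246) and, with the block, 0.27 ± 0.10 (SE, adjusted p = 0.0858), so it was not called. At day 2 it was 105, 83.6 and 90.3 in control and 98.7, 88.5 and 74.7 with miR-125b, which overlap. At day 13 it was 98.6, 82.6 and 93.2 and 99.3, 88.4 and 92.0 under the continued label and 121, 87.9 and 91.3 and 105, 102 and 108 under the withdrawal label, in control and miR-125b, and both overlap. The change of the miR-125b effect from day 2 to day 10 was 0.36 ± 0.17 (SE, adjusted p = 0.709). Over the average of the conditions Ago1 was called higher, by 0.13 ± 0.038 (SE, adjusted p = 0.0397), with the block and without both libraries that stand apart, and not otherwise (0.067 ± 0.059 SE, adjusted p = 0.753).

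Ago2, the other member with seed letters in its UTR, had CPM of 177, 149 and 160.5 in control and 153, 150.3 and 88.4 with miR-125b at day 2. Replicate 3 holds the low value, and the difference of -0.31 ± 0.16 (SE, adjusted p = 0.941) was -0.094 without that library. At day 10 it was 135, 145 and 127 in control and 119, 155 and 151 with miR-125b (0.068 ± 0.16 SE). At day 13 it was 138, 161 and 133 and 142, 176 and 137 under the continued label and 192, 157 and 143 and 139.9, 156 and 147 under the withdrawal label. The constructs overlap in all 4 conditions. Ago3 had CPM of 22.9, 23.4 and 24.5 in control and 22.3, 23.1 and 16.8 with miR-125b at day 2, and its group means then stayed between 20.7 and 23.8 in the other 6 groups. It was the least variable member (coefficient of variation 8.63%), and its largest change of effect, from day 2 to day 10, was 0.30 ± 0.16 (SE, adjusted p = 0.723).

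Tnrc6a, the most abundant of the scaffold genes that link Argonaute to deadenylation, was the only member called for miR-125b against control with all libraries in the fit, and only with the block. At day 2 its CPM was 156, 148 and 143 in control and 114, 139.6 and 87.3 with miR-125b. At day 10 it was 130.1, 151 and 151 in control and 99.68, 134 and 111 with miR-125b. At day 2 the groups do not overlap, and at day 10 the highest miR-125b value, of replicate 2, lies above the lowest control. Under the continued day 13 label it was 128, 152 and 148 in control and 133, 162 and 132 with miR-125b, which overlap widely. Under the withdrawal label it was 128, 156 and 159 in control and 125.3, 136 and 127 with miR-125b, lower in 3 of 3 pairs. The log2 differences were -0.39 ± 0.14 (SE, adjusted p = 0.898) at day 2, -0.33 ± 0.14 (SE, adjusted p = 0.227) at day 10, -0.0022 ± 0.14 at day 13 and -0.19 ± 0.14 after withdrawal. With the block the adjusted p was 0.307 at day 2 and 0.0599 at day 10. The blocked fit without miR-125b day 10 replicate 2 called the day 10 difference (-0.40 ± 0.13 SE, adjusted p = 0.0358). No other fit called it, and that library holds the highest Tnrc6a value of its group. Averaged over the 4 conditions the difference was -0.23 ± 0.070 (SE, adjusted p = 0.138) without the block. With the block Tnrc6a fell with miR-125b, with a difference of -0.23 ± 0.055 (SE, adjusted p = 0.0130). The blocked call held in 24 of 24 fits with 1 library left out, with differences of -0.26 to -0.19 and adjusted p of 0.00653 to 0.0313. Without the block it was called in 1 of 24 such fits, without miR-125b day 2 replicate 2 (adjusted p = 0.0499). It was -0.20 (adjusted p = 0.00535) with the block and without both libraries that stand apart. The comparison of day 13 with day 10 in the miR-125b arm gave 0.31 ± 0.14 (SE, adjusted p = 0.220). Replicate 2 libraries had the highest summed megakaryocyte markers in 7 of 8 groups and also the highest Tnrc6a in 5 of 8. In every group replicate 2 was also highest in the summed progenitor and endothelial (Cdh5, Kdr and Tek) markers and lowest in the erythroid ones. It was highest in the mast cell or basophil sum in every group but miR-125b day 2, at 291 CPM against 78.2 and 40.5 in control day 10. The neutrophil precursor and stromal sums were lowest in replicate 2 in every group but miR-125b withdrawal. The part of cell make-up in the Tnrc6a values was not tested. The 4 neutrophil precursor markers, all tested, had a higher summed CPM with miR-125b than in control in 11 of 12 same-number pairs. Their sums were 20.8 to 65.2 with miR-125b against 16.7 to 34.3 in control at day 2, and 29.4 to 98.2 against 5.58 to 30.4 at day 10. At day 13 they were 24.6 to 34.9 against 5.26 to 42.5 with continued doxycycline, and 40.8 to 59.2 against 5.88 to 40.6 after withdrawal. The groups do not overlap under the withdrawal label and overlap in the other 3 conditions. Prtn3 ran from 5.2 to 68.8 CPM over the libraries and Mpo from 0.0478 to 28.5 CPM, while Elane was at 0 in 4 libraries and Ctsg in 5. The 4 progenitor markers (Kit, Gata2, Cd34 and Myb), none at 0 in any library, summed higher with miR-125b in only 1 of 12 pairs, with groups that overlap in all 4 conditions. Their sums were 636 to 892 CPM with miR-125b against 674 to 1045 in control at day 2, and 481 to 973 against 565 to 1232 at day 10. At day 13 they were 510 to 1035 against 534 to 1054 with continued doxycycline, and 431 to 888 against 488 to 1149 after withdrawal. The 4 macrophage markers, of which 3 were tested, summed higher with miR-125b in 9 of 12 pairs, at 3.27 to 8.18 CPM over all libraries, with no overlap at day 10. Adgre1 and Mrc1 among them were each at 0 in 2 libraries. The 3 stromal markers, of which 2 were tested, summed higher with miR-125b in 9 of 12 pairs, at 0.751 to 13.0 CPM, with Pdgfra at 0 in 23 libraries. The 3 endothelial markers, of which 2 were tested, did so in 2 of 12, at 1.71 to 22.8 CPM. The other lists did so in 4 (B or T cell), 5 (erythroid), 6 (megakaryocyte, hepatoblast) and 7 (mast cell or basophil) of 12. The part of these marker lists in the Tnrc6a values was not tested.

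Tnrc6b and Tnrc6c, the scaffold genes with lower levels than Tnrc6a, had their largest differences between the constructs at day 2. Tnrc6b CPM at day 2 was 90.7, 65.1 and 71.4 in control and 64.5, 56.6 and 38.8 with miR-125b, with no overlap. The difference of -0.51 ± 0.14 (SE, adjusted p = 0.811) was the largest of any member in any comparison of the constructs and did not pass the test. At day 10 it was 63.7, 58.4 and 61.7 in control and 57.8, 62.9 and 70.0 with miR-125b, and the difference was 0.054 ± 0.14 (SE). The change of effect from day 2 to day 10 was 0.56 ± 0.20 (SE, adjusted p = 0.690), where 0% of all genes were called. In control, Tnrc6b was lower at day 10 than at day 2 with no overlap, as were 6.86% of all genes (-0.31 ± 0.14 SE, adjusted p = 0.705). It was 1 of 4 members lower without overlap there, with Dicer1, Ago2 (-0.26 ± 0.16 SE, adjusted p = 0.901) and Ago3 (-0.19 ± 0.11 SE, adjusted p = 0.875), and none of the 4 passed the test. At day 13 it was 64.5, 69.8 and 71.1 in control and 71.1, 78.3 and 71.6 with miR-125b under the continued label, and 80.0, 71.4 and 75.7 and 63.2, 69.8 and 66.6 under the withdrawal label. The miR-125b values lie below the control values after withdrawal, as for 5.62% of all genes (-0.19 ± 0.14 SE, adjusted p = 0.756). Against day 10, control values were above with no overlap under the continued label, as for 4.99% of all genes (0.16 ± 0.14 SE, adjusted p = 1.00). The miR-125b values were also above their day 10 values with no overlap, as for 14% of all genes, in 3 of 3 pairs (0.21 ± 0.14 SE, adjusted p = 0.408). Control libraries labelled withdrawal were likewise higher with no overlap, as for 4.46% of all genes (0.30 ± 0.14 SE, adjusted p = 0.737). Tnrc6c CPM at day 2 was 56.0, 42.4 and 47.4 in control and 42.8, 39.8 and 31.9 with miR-125b, lower in 3 of 3 pairs with a small overlap (-0.35 ± 0.12 SE, adjusted p = 0.887). At day 10 it was 47.4, 43.3 and 42.2 in control and 42.9, 42.1 and 50.5 with miR-125b, which overlap, and the change of effect was 0.38 ± 0.17 (SE, adjusted p = 0.709). At day 13 the Tnrc6c differences were 0.012 ± 0.12 with continued doxycycline and -0.064 ± 0.12 after withdrawal (SE).

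**Figure D3:**
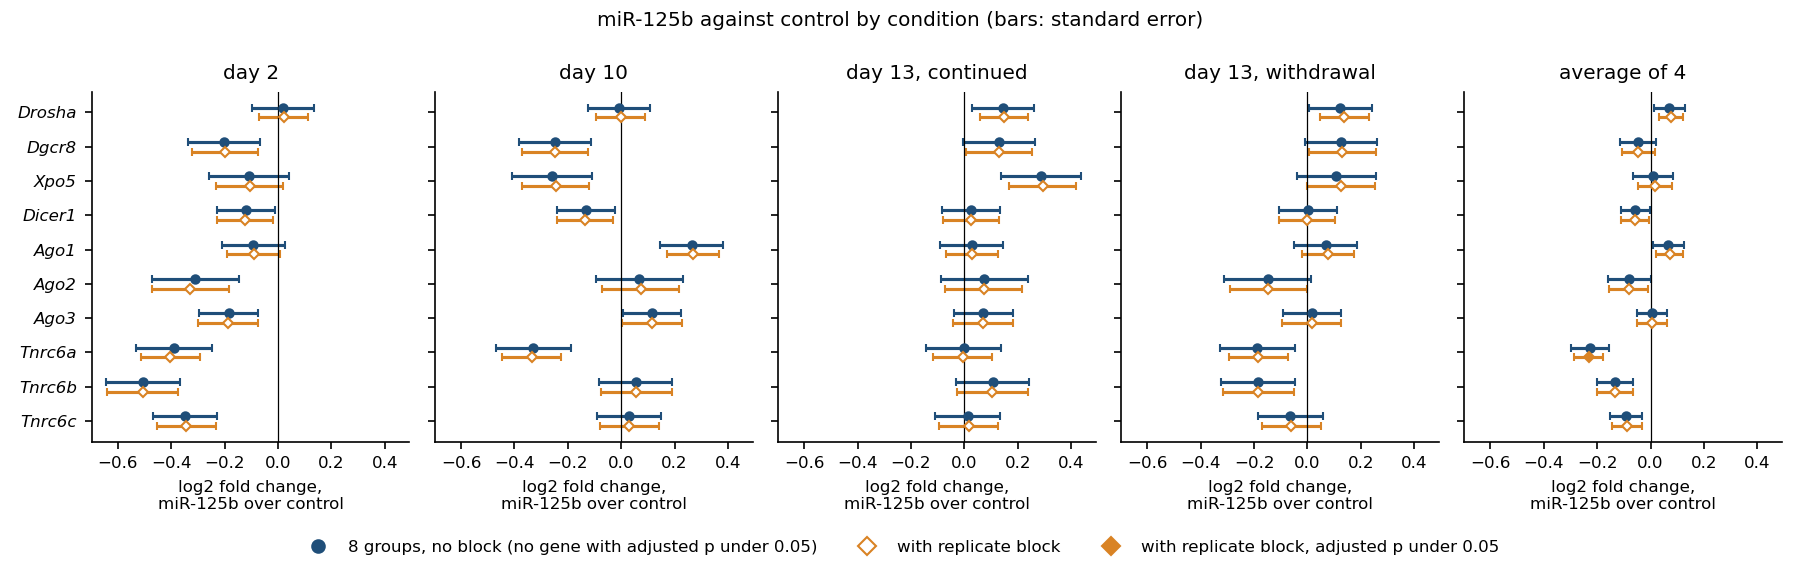
Log2 fold change of miR-125b over control for each gene (horizontal axis) in the 4 labelled conditions and their average, from the fit without and with the replicate block. Points are estimates and bars standard errors. Tnrc6a at -0.23 in the average panel is the single filled diamond, and the day 2 panel holds 9 of 10 genes below 0.

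At day 2 the members leaned one way as a list: 9 of 10 were below 0 with miR-125b, with a median log2 difference of -0.19 against 0.0039 over all genes. That lean rested in part on 1 library. In miR-125b day 2 replicate 3, 6 of the 10 members (Ago1, Ago2, Ago3, Tnrc6a, Tnrc6b and Tnrc6c) had their lowest value of all 24 libraries, and the members' median shift from the other 2 libraries of the group was -0.347 on the log2 scale. In the same library 1657 long protein-coding genes, with transcripts of at least 6000 bases, were shifted by a median of -0.303. Without this library the members' median at day 2 was -0.075, and without both libraries that stand apart Tnrc6b was at -0.32, Tnrc6a at -0.23, Tnrc6c at -0.23 and Ago2 at -0.089. In control withdrawal replicate 1 the members shifted by 0.259 and the long genes by 0.158. There Drosha, Xpo5, Ago1 and Ago2 had their highest value of all 24 libraries and Dgcr8 its lowest. What sets these libraries apart was not tested. The other member medians were 0.0098 at day 10, 0.073 under the continued day 13 label and 0.0090 under the withdrawal label, against 0.0042, -0.016 and -0.012 over all genes.

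**Figure D4:**
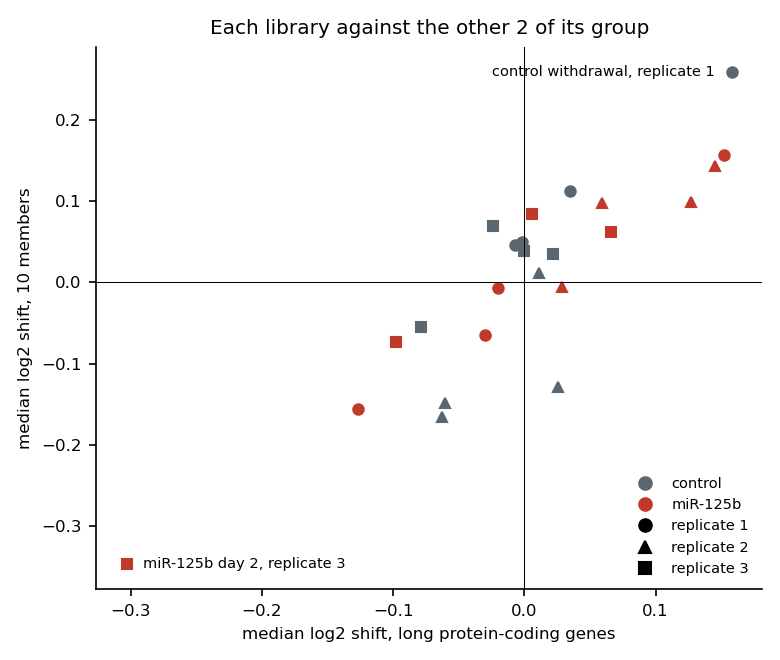
Median log2 shift of the 10 members (vertical axis) and of long protein-coding genes (horizontal axis) in each of 24 libraries against the other 2 libraries of its group. The labelled libraries lie at the ends of both axes, at -0.303 and -0.347 for miR-125b day 2 replicate 3 and at 0.158 and 0.259 for control withdrawal replicate 1.

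Withdrawal of doxycycline itself was not followed by a called difference in any member. Against continued doxycycline at day 13, 0 of 10 members were called in the miR-125b arm and 0 in the control arm, where 0% of all genes were called in each, and DESeq2 called 0 members in both. At an unadjusted p under 0.05 there were also 0 in both arms, against 2.21% and 2.65% of all genes. The member differences ran from -0.15 (Tnrc6b) to 0.17 (Ago1) with miR-125b, with a median of -0.0093, and from -0.040 (Dgcr8) to 0.18 (Ago2) in control, with a median of 0.12. Tnrc6b was lower after withdrawal in 3 of 3 pairs with miR-125b and higher in 3 of 3 with control, and the test of that difference gave -0.29 ± 0.20 (SE, adjusted p = 1.00). Tnrc6b was the one member whose miR-125b groups do not overlap on the lower side (4.45% of all genes), Ago1 the one on the higher side (4.57%), and in control Ago3 and Tnrc6b were higher with no overlap (2.24%). With the block 0 members were called in either arm, where 0.0522% and 0.00745% of all genes were.

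Between times, 0 of 10 members were called without the block from day 2 to day 10 in either arm, and at an unadjusted p under 0.05 there was 1 with miR-125b (Dicer1, 14.9% of all genes) and 2 in control (Dicer1 and Tnrc6b, 6.75%). With the block 0 were called, where 4.08% and 0.149% of all genes were. From day 10 to day 13 with continued doxycycline 2 members had an unadjusted p under 0.05 with miR-125b (Xpo5 and Tnrc6a, 20.5%) and 0 in control (3.51%), where 0.0373% of all genes were called with the block. Against the withdrawal label there were 3 with miR-125b (Drosha, Xpo5 and Dicer1, 16.1%), where 0.179% of all genes were called, and 1 in control (Tnrc6b, 6.61%), where 0% were. The interactions of miR-125b with withdrawal and with the step from day 2 to day 10 had 0 and 3 members under that p (Ago1, Tnrc6b and Tnrc6c), against 1.68% and 6.86% of all genes, and the one with the step from day 10 to day 13 had 1 (Xpo5), against 14.6%, where 0.0224% were called without the block and 3.85% with it. In direction, 9 of 10 members were below 0 from day 2 to day 10 in control, with a median of -0.15, and 6 of 10 above 0 with miR-125b, with a median of 0.064 (-0.068 without miR-125b day 2 replicate 3). From day 10 to the continued day 13 label the member medians were 0.18 with miR-125b and 0.019 in control, against -0.029 and 0.0090 over all genes. Those comparisons share their day 10 libraries with the construct comparison at day 10. The control comparison of day 10 with day 2 likewise shares its day 2 libraries with the construct comparison at day 2. The 9 of 10 members below 0 in each of these 2 are thus not separate observations.

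The sums of squares show which label the members followed. Each gene's variation in log2 CPM over the 24 libraries was divided among construct, condition, their combination, the replicate number and the rest. The construct took 29.9% for Tnrc6a and at most 9.64% (Tnrc6b) for any other member, against a median of 2.71% over all genes. Condition took 46.6% for Dicer1, 30.02% for Drosha and 26.3% for Xpo5, against a median of 15.3%. The combination of construct and condition took 30.9% for Tnrc6b and 28.1% for Dgcr8, against 10.4%. The replicate number took 29.7% for Drosha, 22.3% for Ago1 and 20.5% for Tnrc6a, against 18.4%. The rest was largest for Ago3 (56.4%), Ago2 (52.6%) and Dgcr8 (51.1%), against 36.4%.

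**Figure D5:**
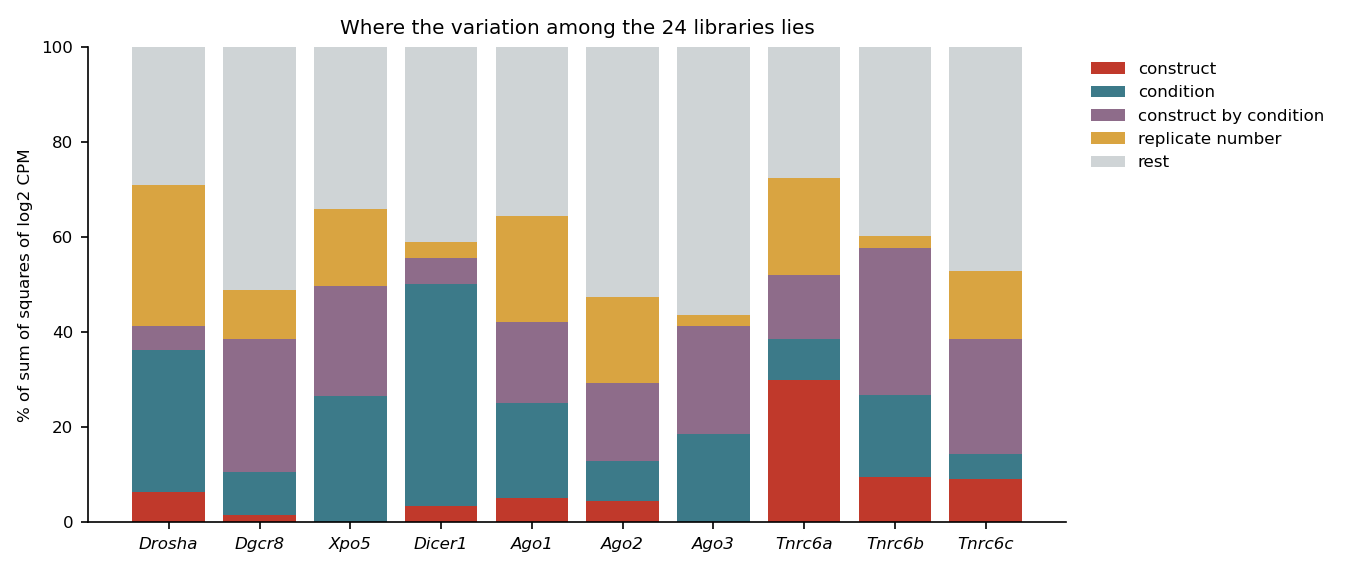
Share of each gene's total sum of squares of log2 CPM over 24 libraries (vertical axis, percent) taken by construct, labelled condition, their combination, replicate number and the rest. Tnrc6a has the largest share for construct, 29.9%, and Dicer1 the largest for condition, 46.6%.

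The genes most like each member over the 24 libraries were sought among 13409 tested genes, by Pearson correlation of log2 CPM. Drosha was most like Hspa9, a mitochondrial chaperone (r = 0.946), Xpo5 like Utp20, a ribosome assembly factor (0.942), and Ago2 like Akap13, an anchoring protein (0.923). Tnrc6b was most like Lnpep, an aminopeptidase (0.922), Tnrc6a like Prdm2, a zinc finger protein (0.872), Dicer1 like Plagl2, a zinc finger transcription factor (0.869), and Dgcr8 like Pmm2, an enzyme of mannose metabolism (0.858). Ago3 was most like Atrx, a chromatin remodeller (0.822), Ago1 like Gfod1 (0.810) and Tnrc6c like Elmsan1 (0.806). The points share their libraries, replicate numbers and the 2 libraries that stand apart, so these values are descriptions.

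Of 64 other genes of the pathway, 62 were tested. They were 14 nuclear cofactors, 11 dicing and loading partners, 14 deadenylation genes, 15 decapping and decay genes, and 10 of microRNA turnover and let-7 control, of which Lin28a and Trim71 were not tested (at most 3 counts in a library). With miR-125b against control, 0 of 62 were called at day 2, 1 was called lower at day 10, 0 in either day 13 comparison and 1 lower over the average, against 0.872% of all genes called at day 10 and 1.28% over the average. That gene was Lin28b in both, an RNA-binding protein that blocks the maturation of let-7 microRNAs. Lin28b CPM (lowest, median and highest of 3 libraries) was 46.8, 52.2 and 56.7 in control and 33.2, 33.8 and 37.0 with miR-125b at day 10. The groups do not overlap, and Lin28b fell with a log2 difference of -0.58 ± 0.11 (SE, adjusted p = 0.0262) at day 10 and -0.34 ± 0.057 (SE, adjusted p = 0.00378) over the average. At day 2 its CPM was 42.3, 48.7 and 51.0 in control and 28.2, 32.1 and 40.5 with miR-125b. Those groups do not overlap either, but Lin28b was not called there. In the libraries labelled miR-125b at day 13 it was 50.9, 58.4 and 60.8 with continued doxycycline and 37.1, 38.6 and 39.2 after withdrawal, against 50.2, 56.4 and 59.0 and 46.5, 49.3 and 49.4 in control. Withdrawal against continued doxycycline in the miR-125b arm gave -0.56 ± 0.11 (SE, adjusted p = 0.357) and, with the block, -0.56 ± 0.10 (SE, adjusted p = 0.0435), where 0.0522% of all genes were called with the block, and the libraries low in Lin28b were also those low in Arid3a. With the block 6 of the 62 were called at day 10, a share near the 8.63% of all genes called in that fit. Among them were Ddx17, a helicase that works with Drosha, higher (0.30 ± 0.084 SE, adjusted p = 0.0326), and Hsp90aa1, a chaperone of Argonaute loading, lower (-0.42 ± 0.11 SE, adjusted p = 0.0274). In the miR-125b arm from day 2 to day 10, 0 of the 62 were called without the block and 3 with it, a share near the 4.08% of all genes called with the block. These were Ddx17 (0.33 ± 0.084 SE, adjusted p = 0.0323) and the splicing factor Hnrnpa1 (0.29 ± 0.082 SE, adjusted p = 0.0455), both higher, and Cnot11, a subunit of the CCR4-NOT deadenylase complex, lower (-0.37 ± 0.10 SE, adjusted p = 0.0414).

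More genes of the pathway were called from day 10 to the continued day 13 label in the miR-125b arm, where 8 of 62 genes were called higher and 0 lower, against 3.53% of all genes called. They were Lin28b (0.71 ± 0.11 SE, adjusted p = 0.00899), Fmr1, an RNA-binding translation regulator (0.59 ± 0.12 SE, adjusted p = 0.0181), Hsp90aa1 (0.59 ± 0.13 SE, adjusted p = 0.0249), the deadenylase Cnot6 (0.45 ± 0.10 SE, adjusted p = 0.0243), the cap-binding pair Ncbp1 (0.43 ± 0.090 SE, adjusted p = 0.0217) and Ncbp2 (0.38 ± 0.095 SE, adjusted p = 0.0346), the deadenylase subunit Cnot9 (0.32 ± 0.063 SE, adjusted p = 0.0182) and Tsn, which encodes translin (0.30 ± 0.081 SE, adjusted p = 0.0463). In the control arm 0 of 62 were called. With the block 11 were called higher and 2 lower, against 13.4% of all genes called in either direction. The lower ones were Ago4, the fourth Argonaute (-0.96 ± 0.29 SE, adjusted p = 0.0326), and the helicase Mov10 (-0.45 ± 0.15 SE, adjusted p = 0.0436). Ago4 was expressed at a low level, 2.33, 2.56 and 3.19 CPM at day 10 and 1.32, 1.44 and 1.45 at day 13 in the miR-125b arm. Against the withdrawal label 0 of 62 were called without the block and 8 with it, 7 higher and 1 lower, against 0.179% and 5.33% of all genes, where Ago4 was again the lower one (-1.38 ± 0.30 SE, adjusted p = 0.0185). The largest of the higher ones were Hsp90aa1 (0.49 ± 0.11 SE, adjusted p = 0.0216) and Ncbp1 (0.37 ± 0.091 SE, adjusted p = 0.0278). The difference of the miR-125b and control time courses from day 10 to day 13 was called for 0 of 62 without the block and for 4 with it, all higher, against 3.85% of all genes with the block, the largest being Lin28b (0.62 ± 0.14 SE, adjusted p = 0.0277) and Hsp90aa1 (0.61 ± 0.16 SE, adjusted p = 0.0407). With the fit restricted to the 2 groups compared, 0 of the 62 were called at day 10 or from day 10 to day 13, and the counts also depended on single libraries. From day 10 to day 13 in the miR-125b arm, 0 genes were called without day 10 replicate 1, day 10 replicate 3 or day 13 replicate 1, 1 without day 13 replicate 2, and 12 without day 10 replicate 2. For miR-125b against control at day 10, where Lin28b alone was called, 0 were called without miR-125b replicate 1 or 3 or control replicate 1 or 3, and 8 without miR-125b replicate 2.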

How the data were processed

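RNA of mouse fetal liver cells in 24 libraries was sequenced by the authors, and the deposited table holds whole-number read counts per gene, 1 column per library, with 0 columns left unmatched to a library. Per the submitters' processing notes, fastp, HISAT2 2.0.5, featureCounts and the mm10 build were used, and the annotation release, strand setting and filters are not given in the sources used here. Without a stated strand setting, reads of overlapping or antisense genes could be included, and reads of related genes could be divided.

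Of 47069 identifiers, 46488 were matched to a symbol in GENCODE M21 (GRCm38), which also gave coordinates, exon lengths and 3′ UTRs. filterByExpr kept 13419 genes. edgeR 4.0.16 in R 4.3.3 was fitted to the 8 groups together by quasi-likelihood (glmQLFit, robust, then glmQLFTest), with TMM scaling and 16 residual degrees of freedom. P-values are two-sided and adjusted by the Benjamini-Hochberg method over 13419 genes. Standard errors come from the F statistic. Of the 16 comparisons, 3 were added after the values were seen: day 13 after withdrawal against day 10 in each arm, and the interaction with time between day 13 and day 10.

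The labels give replicate numbers 1 to 3 in every group. Across genes, the deviations from the group mean of any 2 same-numbered libraries correlated above 0.1 in all 84 cases (0.163 to 0.781, median 0.475, against a median of -0.304 for different numbers). By this check the numbers pair the libraries, and a fit with the number as a block is given where it alters a call. The script was tested on simulated data for miR-125b against control at day 10, without the block. It called 44 of 100 genes changed 1.5-fold and 81 of 100 changed 2-fold, with 3 false calls. The simulation held no pairing by replicate number. A member that was not called is therefore not shown to be unchanged.

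The members and gene lists were chosen with earlier results of these data known. A member and comparison are given with SE and adjusted p where the unadjusted p was under 0.05 without the block, or the adjusted p under 0.05 with it, and otherwise for the comparison of lowest p. Further values are printed without being chosen by that rule. Pathway genes are named where called without the block, and otherwise up to 2 in each direction with it. Alternatives were the block, RLE size factors, DESeq2 1.42.0, no low-count filter, the newer quasi-likelihood estimate, only the groups compared, each library left out, and the 2 libraries that stand apart left out.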

Additional observations from a re-analysis of the deposited data

How the results depend on the processing

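No called difference of a member reversed its direction. The members' median log2 difference, which has no test, crossed 0 over the alternatives at day 10 (-0.048 to 0.061), after withdrawal (-0.054 to 0.015), for the average (-0.083 to 0.011), for withdrawal against continued doxycycline with miR-125b (-0.035 to 0.037), for day 10 against day 2 with miR-125b (-0.076 to 0.19) and for day 13 against day 10 in control (-0.0059 to 0.041). The replicate block changed 3 member calls: the number of members called went from 0 to 1 for the average effect of miR-125b (Tnrc6a), from 0 to 1 for day 13 against day 10 with miR-125b and from 0 to 1 for withdrawal against day 10 with miR-125b (Xpo5 in both). It changed no other member call. For the other pathway genes the block moved the number called from 1 to 6 at day 10, from 0 to 1 for withdrawal against continued doxycycline with miR-125b, from 0 to 3 for day 10 against day 2 with miR-125b, from 8 to 13 for day 13 against day 10, from 0 to 8 for withdrawal against day 10 and from 0 to 4 for the interaction of day 13 and day 10. Over all 13419 genes the block took the number called from 117 to 1158 at day 10, from 172 to 858 for the average and from 474 to 1800 for day 13 against day 10 with miR-125b.

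DESeq2 called 1 member for day 13 against day 10 with miR-125b, as did the newer quasi-likelihood estimate, and it called 4 pathway genes at day 10, 1 for withdrawal against continued doxycycline, 1 for day 10 against day 2, 5 for withdrawal against day 10 and 3 for the interaction of day 13 and day 10. Only the groups compared gave 0 pathway genes at day 10 and 0 for day 13 against day 10. Without the block and with each library left out in turn, the members called ran from 0 to 1 for the average and from 0 to 1 for day 13 against day 10 with miR-125b. In these fits the pathway genes called ran from 0 to 8 at day 10, from 1 to 2 for the average, from 0 to 2 for day 10 against day 2, from 0 to 12 for day 13 against day 10, from 0 to 8 for withdrawal against day 10 and from 0 to 8 for the interaction of day 13 and day 10. The blocked fit without miR-125b day 10 replicate 2 also called Dgcr8 and Tnrc6a lower at day 10 (adjusted p = 0.0392 and 0.0358). It called Dicer1 for day 10 against day 2 with miR-125b (0.0291) and Tnrc6a for day 13 against day 10 (0.0415). For the interaction of day 13 and day 10 it called Xpo5 (0.0252) and Dgcr8 (0.0473). The library left out held the highest Dgcr8, Tnrc6a, Dicer1 and Xpo5 values of its group, so its absence lowers that group in each comparison. None of these differences was called without the block with 1 library left out. Without control withdrawal replicate 1 the blocked fit called Drosha after withdrawal (0.0484).

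Without both libraries that stand apart, chosen after seeing the data, 2 pathway genes were called for the average. With the block as well, the members called were 1 after withdrawal, 3 for the average and 2 for day 10 against day 2 with miR-125b, and the pathway genes 3, 6 and 1. The cause of these differences was not tested. With the longest transcript as length, the levels per kb were 23.97 for Drosha, 16.6 for Tnrc6a, 14.8 for Xpo5, 13.1 for Ago1, 10.69 for Dgcr8, 10.66 for Ago2, 9.63 for Dicer1, 3.88 for Tnrc6b, 3.76 for Tnrc6c and 1.43 for Ago3. The standard errors of the members' log2 differences between constructs within a condition were 0.11 to 0.16 without the block and 0.091 to 0.14 with it.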
